A study of Mus musculus with 16 samples.

Results

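The cells described here are vascular endothelial cells that came through a selection for CD45-bearing leukocytes from mouse B16 melanomas. They were chosen from raw UMI counts (unique molecular identifiers, each a counted transcript) in all 8 matrices of the series. Barcodes had to show 200 or more genes and no more than 10% of UMIs from mitochondrial genes. A kept barcode was a member with at least 1 UMI of Cdh5, at least 1 UMI over Egfl7, Kdr and Flt1, none of Ptprc, fewer than 10 over the fibroblast genes Col1a1, Col1a2, Col3a1 and Dcn, and fewer than 30 over the melanoma genes Mlana, Pmel, Dct and Tyrp1. This gave 164 members of 99357 kept barcodes, from 116552 in all.

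Endothelial cells line blood and lymphatic vessels, hold each other through VE-cadherin (Cdh5) and PECAM-1, and respond to VEGF through the receptors encoded by Kdr and Flt1. In growing tumours, tip cells lead new sprouts while capillary, arterial and venous cells form the vessel wall behind them. Venous endothelium is the usual site where leukocytes leave the blood, using selectins, VCAM-1 and ICAM-1, and endothelial cells exposed to interferon-gamma raise chemokines such as CXCL9 and CXCL10 together with their antigen presentation genes. CD40, a receptor of the TNF receptor family, is best known on dendritic cells, macrophages and B cells and can also be made by endothelium.

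C57BL/6J mice carried subcutaneous tumours from 1000000 Bro4.1 B16 melanoma cells, either B2m-null (lacking beta-2 microglobulin, the light chain of MHC class I) or control. Intraperitoneal doses of 100 µg, of anti-CD40 or of an isotype antibody (rat IgG2a), were given on days 6, 9 and 12, with tumour harvest on day 14. Tumours were digested for 10 minutes with collagenase and DNAse, CD45-positive cells were held on magnetic columns, and hashtagged cells of several mice of a group were pooled on each lane. Each isotype group had 2 pools, as did CD40 with B2m-null tumours, while CD40 with control tumours had 1 pool, run as 2 technical lanes that were summed. The sources used here give no ages for the mice, and the implanted cells are a cultured line without endothelium, so the vessels come from the host. Per the sample labels the genotype belongs to the mouse, but per the series design the implanted cells lack B2m, and the design was followed. In barcodes passing a melanoma rule, B2m stood at 944.3 to 1877.0 counts per 1000000 UMIs (CPM) in the 3 control pools and at 156.6 to 411.7 CPM in the 4 B2m-null pools. B2m was thus lower in these barcodes of every B2m-null pool, as the series design has it. The host endothelial members kept B2m, unlike what a genotype of the mouse would give: it ranged from 1583.1 to 5674.2 CPM over the 7 pools.

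The 164 members held 1438048 UMIs, with a median of 5607 per barcode against 3048 in the other kept barcodes, and a range of 501 to 99278. The 7 pools contributed 28 and 14 members (control isotype), 39 (control CD40), 39 and 16 (B2m-null isotype) and 21 and 7 (B2m-null CD40), and 67331 to 315087 UMIs each. The single deepest barcode held 12.16% to 36.72% of its pool's endothelial UMIs, so a pool's level can rest on few cells. No member's barcode sequence was shared between lanes, although any pair of lanes shared 41 to 92 of all their barcodes. No member was marked as a doublet from its hashtags, a call that did not work in 1 of the control CD40 lanes. At the edges of the rule, 13 members had a single Cdh5 UMI, and 31 barcodes that met the first conditions were left out for 1 Ptprc UMI and 151 for more. Another 3 were left out with 10 to 19 fibroblast UMIs, while no member had 5 to 9, and no barcode stood near the melanoma limit on either side.

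The genes the rule used gave 1761 CPM of Cdh5, 1576 of Flt1, 1170 of Kdr and 1051 of Egfl7, against 4.83, 14.98, 8.55 and 4.84 in the other kept barcodes, and these values are a description only. Of the given markers, Pecam1 was not part of the rule. It stood at 1259 CPM against 25.3 and was detected in 149 of 164 members. Pecam1 varied little over the pools, from 1065 to 1541 CPM. All 32 genes of an endothelial identity list were higher in the members than in the other barcodes, summing to 15084.3 against 207.1 CPM, and 26 of them were detected in at least 50% of the members. Among them, Emcn (endomucin, a sialomucin of capillaries and veins) reached 1063 CPM, Ptprb (VE-PTP, the phosphatase of VE-cadherin) 706 CPM, and Sox18 (an endothelial transcription factor) 419 CPM. The list's sum stayed between 13437.6 and 17678.9 CPM in the 7 pools. The endothelial label therefore matches the markers in every pool.

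**Figure D1:**
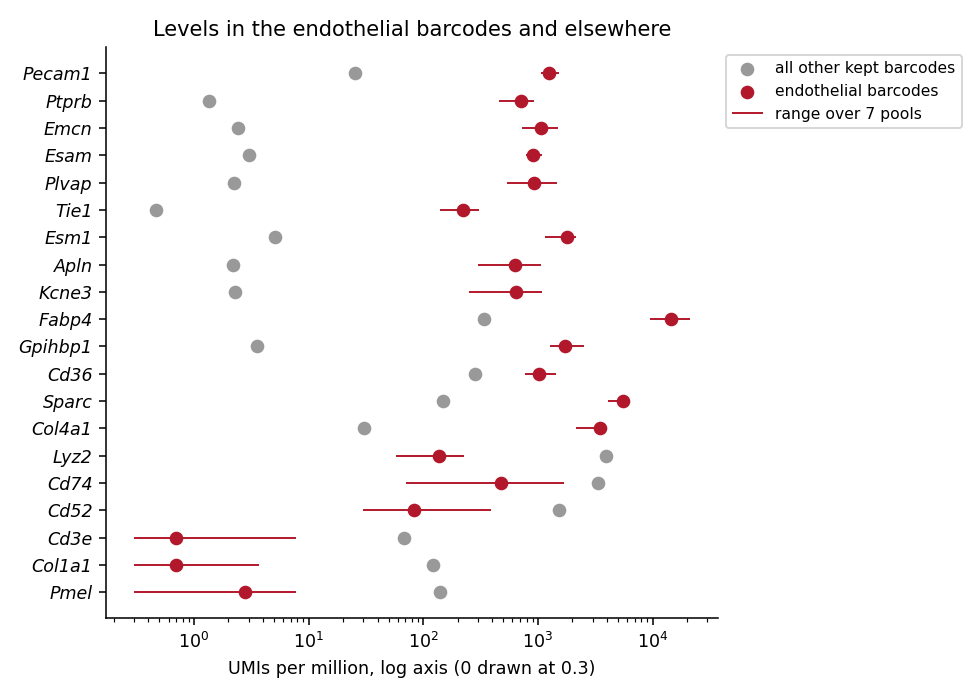
Levels of 20 genes in CPM on a log axis, in the endothelial members and in all other kept barcodes, with a gene at 0 drawn at 0.3. Pecam1 stands at 1259 CPM in the members and 25.3 CPM elsewhere, and the endothelial genes lie to the right in the members while the leukocyte, fibroblast and melanoma genes lie to the left.

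Among genes with at least 50 CPM in the members, the 25 with the highest ratio to the other barcodes were led by Rbp7, a retinol-binding protein, at 676.6 CPM and 713.1-fold over the other barcodes. The same 25 included Gpihbp1, which carries lipoprotein lipase to the capillary lumen, at 1727.3 CPM and 487.7-fold. Ptprb, Clec14a, Mmrn2, Robo4, Tie1, Emcn and the transcription factors Sox7 and Sox18 were also among them. Fabp4, a fatty acid carrier of capillary endothelium, reached 14563 CPM and was detected in 160 members. A basement membrane and matrix list summed to 29684.0 CPM against 2837.4 CPM elsewhere, with Sparc at 5472, Igfbp3 at 5330, Igfbp7 at 4455 and Col4a1 at 3503 CPM. Col4a1 encodes a chain of basement membrane collagen, and Sparc a protein that binds it.

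Markers of the other cell types of the tumour were low but not at 0. The melanoma list (11 genes, 2 at 0) summed to 27.82 CPM in the members against 1344.8 elsewhere, and the fibroblast list (11 genes, 5 at 0) to 14.6 against 573.2, both lists holding genes of the rule. The monocyte and macrophage list (14 genes, none at 0) summed to 658.5 CPM against 16105.2 and ranged from 222.8 to 1234.6 over the pools. The T and NK list (14 genes, 1 at 0) summed to 60.5 against 2984.6 CPM and was highest, at 282.1, in B2m-null CD40 replicate 1. That pool also held the 1489.1 CPM of the B cell list, from 1 barcode with at least 10 immunoglobulin UMIs, while the other 6 pools reached at most 8.859 CPM and 4 of the 6 genes were at 0. The 5 erythroid genes summed to 0.6954 CPM and the 6 epithelial genes were all at 0. The 8 dendritic cell genes summed to 274.0 CPM, above the 143.7 elsewhere, with 4 at 0: 230.9 CPM of this was Fscn1, the actin bundler fascin, and 41.7 CPM was Zbtb46. The 12 pericyte genes summed to 280.2 against 59.94 CPM, of which Abcc9 gave 154.4 CPM in 59 members and Rgs5 52.9 CPM in 13 members, while Acta2 and Cspg4 stood at 2.09 and 0.6954 CPM. In all, 89 of 164 members (54.27%) held at least 3 leukocyte UMIs, and the part of these in any result was not tested by their removal.

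Most members carried tip cell and capillary genes side by side. Esm1 (endocan, a marker of sprouting tip cells) was detected in 104 members at 1782 CPM, and its pool levels ran from 1143 to 2142 CPM. That is 63.4% of members, against 4.01% of T cell barcodes (2 or more UMIs of Cd3d, Cd3e and Cd3g). No such background share was taken for the other genes and lists of this paragraph. Apln (apelin, a tip cell ligand) and Kcne3 (a potassium channel subunit) were each detected in 90 members, at 630 and 647 CPM. Angpt2, the angiopoietin that loosens vessels, was detected in 92 members and Dll4, the Notch ligand of tip cells, in 99. At least 3 genes of a tip cell list were found in 136 members (82.93%), and at least 3 of a capillary list in 149 (90.85%), against 82 (50%) for an arterial and 84 (51.22%) for a venous list. Esm1 and Apln were detected together in 78 members (47.56%), whose median depth was 9253.0 UMIs, so detection in a barcode depended in part on its depth.

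A smaller share carried post-capillary venule genes. Selp (P-selectin) or Ackr1 (the chemokine receptor of venules) was detected in 21 members (12.8%), with 1 to 7 such members in every pool. Their median depth of 5942.0 UMIs was close to the 5600.0 of the 143 members without either gene. Esm1 was found in 3 of the 21 and in 101 of the 143, and stood at 573.0 against 1930.6 CPM. Vwf, the clotting factor stored by venous endothelium, stood at 350.2 against 46.84 CPM, and Vcam1 at 337.4 against 81.19 CPM. Of the 21, 1 member of the control CD40 pool also had at least 2 lymphatic genes, with 5935.6 CPM of Ccl21a, so detection of Selp or Ackr1 did not select venous cells alone. These cells were picked by gene detection and their contrasts are a description with no test. Mki67 or Top2a, genes of cycling cells, was detected in 46 members (28.05%), of which 32 also had Esm1. Only 3 members had at least 2 lymphatic genes, all in the control CD40 pool, and in them Ccl21a stood at 6785.7, Lyve1 at 2105.9, Flt4 at 1325.9 and Prox1 at 312.0 CPM.

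The share of endothelial members among kept barcodes was 0.179% and 0.131% in the control isotype pools, 0.147% in the control CD40 pool, 0.321% and 0.136% in the B2m-null isotype pools, and 0.196% and 0.0587% in the B2m-null CD40 pools. The highest and the lowest pool were both B2m-null, and the ranges of the groups overlapped. The CD40 pools averaged 0.134% ± 0.0697 (SD, n = 3) and the isotype pools 0.192% ± 0.0889 (SD, n = 4), a difference of -0.0578 percentage points with a 2-sided exact permutation p of 0.514. B2m-null pools averaged 0.178% ± 0.111 (SD, n = 4) and control pools 0.1525% ± 0.0242 (SD, n = 3), with an exact permutation p of 0.743. The smallest p these designs allow is 0.0571. Since the cells had been selected for CD45, this share is one of carry-over, and endothelial density in the tumour was not measured.

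**Figure D2:**
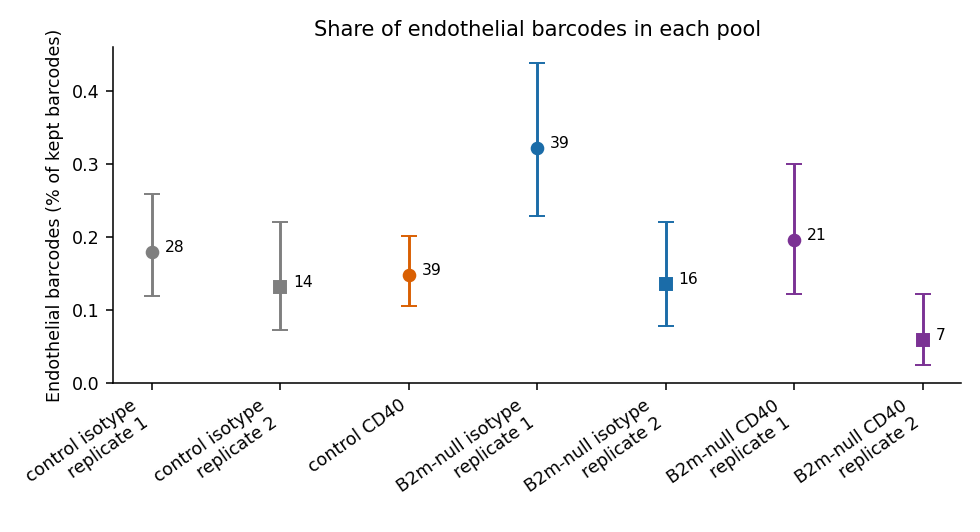
Endothelial members as a percent of kept barcodes in each of the 7 pools, with 95% exact binomial intervals (counting error only) and the number of members printed at each point. B2m-null isotype replicate 1 is highest at 0.321% (39 members) and B2m-null CD40 replicate 2 lowest at 0.0587% (7 members).

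Gene levels were compared between groups on UMIs summed over the members of each pool. The 6 pools with at least 10 members entered one edgeR quasi-likelihood fit of 5660 genes, so B2m-null CD40 replicate 2, with 7 members, stayed out and each CD40 group was 1 pool whose spread was taken from the isotype pools (2 residual degrees of freedom). Members were not assigned to single mice, so the p-values measure the spread between isotype pools and hold none between CD40 pools. The 2 B2m-null CD40 pools lay far apart for some of the genes below, so the spread taken from isotype pools can be too small for CD40 contrasts. Changes are log2 fold changes ± SE with Benjamini-Hochberg adjusted p over all genes, and the genes of the selection rule were left out. CD40 against isotype within B2m-null tumours called 155 genes, 2.74% of those tested, with 132 raised (2.33%) and 23 lowered (0.406%). Within control tumours CD40 called 22 genes (0.389%), 16 raised (0.283%) and 6 lowered (0.106%). Averaged over both genotypes, CD40 called 101 genes (1.78%), 81 raised (1.43%) and 20 lowered (0.353%). B2m-null against control tumours, averaged over treatments, called 40 genes (0.707%), with 21 raised (0.371%) and 19 lowered (0.336%). Under isotype alone, a contrast added after the values had been seen, 61 genes were called (1.08%), 8 raised (0.141%) and 53 lowered (0.936%). The CD40 effect itself differed between genotypes for 62 genes (1.1%), with the difference positive for 52 (0.919%) and negative for 10 (0.177%). When the pool of 7 members was added the counts fell to 70, 7, 40, 12, 28 and 11 in that order, of which 64, 7, 39, 12, 28 and 11 were among the genes first called. The median log2 change over all genes tested lay between -0.04 and 0.00 in the 6 contrasts. These comparisons share pools, as the B2m-null isotype pools stand in most of them. In sums over a pool, fewer cells expressing a gene and less RNA per cell cannot be told apart.

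The clearest pattern was in Cxcl9, Cxcl10 and other genes that interferon-gamma induces, which were low in the endothelial cells of B2m-null tumours under isotype. Of 20 chemokine and cytokine genes 15 were tested. Their median change there was -1.32 against 0.00 over all genes tested, and 3 of the 15 lay above zero. By edgeR at an unadjusted p under 0.05, 7 were lower and 1 was higher. Past the adjusted threshold 3 were lower (Cxcl9, Cxcl10 and Tnfsf10, which encodes the death ligand TRAIL) and none was higher. CD40 raised the same 3 within B2m-null tumours (median 2.23). That list summed to 6019.0 CPM in B2m-null CD40 replicate 1 but to 1752.5 in replicate 2. The latter lay below the 4166.2 to 6652.4 of the control pools and above the 1028.3 and 928.4 of the B2m-null isotype pools. With replicate 2 added to the fit, 2 genes of the list were raised within B2m-null tumours. Cxcl9 (ENSMUSG00000029417), a ligand of CXCR3 on activated T cells, stood at 2600 and 3107 CPM in the control isotype pools, 4262 in the control CD40 pool, 88.9 and 166 in the B2m-null isotype pools, and 3378 and 564 in the B2m-null CD40 pools. The B2m-null isotype pools were the lowest, and no other pool overlapped them. Cxcl9 was lower in B2m-null than in control tumours under isotype (-4.52 ± 0.30, n = 2 and 2 pools, edgeR adjusted p = 9.51e-16) and was raised by CD40 within B2m-null tumours (4.80 ± 0.32, n = 1 and 2, edgeR adjusted p = 7.30e-16). With the pool of 7 members added, the CD40 change within B2m-null tumours was 4.02, still called, with that pool at 564 CPM well below its replicate. In every pool a single barcode held between 26.41% and 54.96% of the Cxcl9 UMIs.

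Cxcl10, the second CXCR3 ligand, followed a like order. Its level (ENSMUSG00000034855) was 567 and 212 CPM under control isotype, 793 under control CD40, 0 and 3.70 under B2m-null isotype, and 1058 and 74.3 under B2m-null CD40. The B2m-null isotype pools held 1 UMI between them, and the other pools lay above. From the summed counts the ratio of control to B2m-null tumours under isotype was 247 (95% counting interval 43.7 to 9818), and that of CD40 to isotype in B2m-null tumours was 619 (109 to 24645). Both differences passed edgeR's test (adjusted p = 1.62e-11 and 1.18e-14). A single barcode held 63.28% and 93.94% of the Cxcl10 UMIs in the control isotype pools and 68.89% in B2m-null CD40 replicate 1, so both ratios rest on few cells. In the other kept barcodes Cxcl10 ranged only from 186 to 723 CPM and Cxcl9 from 150 to 798 CPM, with the B2m-null isotype pools lowest for both.

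Ccl8, a monocyte chemoattractant outside that list, went the other way. It stood at 39.9 and 6.42 CPM under control isotype, 25.3 under control CD40, 111 and 766 under B2m-null isotype, and 31.3 and 89.1 under B2m-null CD40, with a single barcode holding 97.1% of the UMIs in the highest pool. The B2m-null isotype pools were the highest, and Ccl8 was higher in B2m-null tumours under isotype (4.02 ± 0.59, edgeR adjusted p = 1.05e-05) and lowered by CD40 within them (-3.71 ± 0.84, edgeR adjusted p = 0.00405). Without that pool the changes were 2.06 and -1.74 and neither was called (edgeR adjusted p = 0.0753 and 0.459), nor by DESeq2 (adjusted p = 0.314 and 1.00). The other kept barcodes held 1310.8 to 2623.3 CPM of Ccl8, and their part in these values was not tested.

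Detection per barcode was likewise lowest in the B2m-null isotype pools for Cxcl9. It was found in 50% and 78.6% of the control isotype members, 71.8% under control CD40, 25.6% and 37.5% under B2m-null isotype, and 81.0% and 71.4% under B2m-null CD40. With each barcode thinned to 2000 UMIs, which left 135 of the 164, the shares were 54.2%, 63.6%, 67.7%, 17.9%, 20%, 72.2% and 60% in the same order. T cell barcodes, which should make little Cxcl9 and whose median depth was 2966.5 UMIs, gave 10.0% to 29.7%, below the endothelial share of the same pool in each of the 7 pools. For Cxcl10 the control isotype shares were 35.7% and 21.4%, where T cells gave 36.5% and 21.2%, and the B2m-null isotype shares were 0% of 39 members (which allows up to 7.69%) and 6.25%, where T cells gave 16.6% and 16.3%. The T cell share is thus no common floor for Cxcl10, and no change in the share of expressing cells is read from these values.

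The promoters of 5 genes that these contrasts turn on are shown with the short motifs that factors of the interferon and NF-kB pathways are known to bind. Each is the 250 bases upstream of the RefSeq start of the gene on the build GRCm38.p6, printed 5' to 3' on the gene's strand, with the motif in capitals. The motifs searched on both strands were GAAA repeated after 2 bases of any kind (the core of the interferon-stimulated response element), TTCNNNGAA (the gamma-activated site) and GGGANTTCC (a form of the NF-kB site). Cxcl9 lies at chr5:92328080-92328329 on the reverse strand, Cxcl10 at chr5:92348890-92349139 on the reverse strand, Gbp2 at chr3:142620413-142620662, Ubd at chr17:37193642-37193891 and Icam1 at chr9:21015690-21015939, the last 3 on the forward strand.
Cxcl9: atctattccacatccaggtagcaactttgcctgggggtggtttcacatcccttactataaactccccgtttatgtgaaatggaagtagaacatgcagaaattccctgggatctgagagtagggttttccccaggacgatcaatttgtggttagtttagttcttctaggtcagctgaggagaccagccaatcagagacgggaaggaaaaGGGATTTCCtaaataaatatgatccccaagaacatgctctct
Cxcl10: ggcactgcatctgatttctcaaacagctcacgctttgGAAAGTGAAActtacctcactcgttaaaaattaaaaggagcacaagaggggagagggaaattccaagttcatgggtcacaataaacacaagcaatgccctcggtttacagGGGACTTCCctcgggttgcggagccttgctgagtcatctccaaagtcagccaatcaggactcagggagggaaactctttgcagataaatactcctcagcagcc
Gbp2: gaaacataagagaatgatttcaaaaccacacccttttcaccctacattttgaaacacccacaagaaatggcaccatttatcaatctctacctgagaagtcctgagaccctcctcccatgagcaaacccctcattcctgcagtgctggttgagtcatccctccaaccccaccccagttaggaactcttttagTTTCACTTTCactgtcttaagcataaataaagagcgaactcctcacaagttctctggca
Ubd: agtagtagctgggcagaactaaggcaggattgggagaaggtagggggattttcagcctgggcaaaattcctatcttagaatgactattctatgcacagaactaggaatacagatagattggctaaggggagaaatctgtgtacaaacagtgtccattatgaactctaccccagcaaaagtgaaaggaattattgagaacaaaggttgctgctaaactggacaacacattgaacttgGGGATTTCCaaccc
Icam1: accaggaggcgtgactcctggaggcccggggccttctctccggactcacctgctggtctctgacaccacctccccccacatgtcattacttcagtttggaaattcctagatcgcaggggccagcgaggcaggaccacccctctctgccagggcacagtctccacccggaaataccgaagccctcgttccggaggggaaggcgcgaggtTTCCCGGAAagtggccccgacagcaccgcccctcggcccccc
In Cxcl9 the capitals mark an NF-kB form whose first base is at -42. In Cxcl10 they mark the response element core at -213 and an NF-kB form at -103, and in Gbp2 the response element core on the opposite strand at -59. In Ubd they mark an NF-kB form at -14 and in Icam1 a gamma-activated site at -42, while the same window of Cd274 holds none of these letters.

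The motifs were also counted over gene groups, as a description. The response element core was found in 12 of the 40 promoters (30%) that matched genes lower in B2m-null tumours under isotype. It was found in 2.956% of 4533 promoters of tested genes and in 3.038% of all 27025. The gamma-activated site was in 8 of the 40 (20%) against 5.559% of the tested genes, and the NF-kB form in 3 of the 40 (7.5%) against 2.03%. The ETS form CAGGAAGT was in none of the 40 and in 2.449% of the tested genes. A match is only a run of letters in this window.

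Guanylate-binding proteins and immunity-related GTPases, which act against intracellular pathogens, showed the same arrangement. Of 24 genes on an interferon-gamma response list, 21 passed the filter on low counts. Under isotype 15 of the 21 were lower in B2m-null tumours and none was higher, with a median log2 change of -2.34 (-2.03 with groups at 0 set to their bound) against 0.00 over all genes tested. CD40 raised 18 of the 21 within B2m-null tumours, with a median of 3.29 against -0.04 over all genes, and lowered none. Within control tumours CD40 raised 1 of the 21, Ubd, with a median of 0.48 against -0.02. Averaged over the genotypes CD40 raised 17, and the CD40 effect was larger in B2m-null tumours for 11 of the 21. Adding the pool of 7 members gave 9, 15, 0, 13 and 1 calls in that order, and DESeq2 gave 6, 10, 0, 6 and 1. With barcodes thinned to 2000 UMIs, where 17 of the 21 could be tested, the calls were 1, 8, 1, 4 and 1, so at that depth the isotype difference was called for a single gene of the list. Immediate early and heat shock genes, which tissue digestion can also induce, moved in the same contrast: CD40 raised 5 of 17 within B2m-null tumours (Egr1, Fos, Fosb, Jun and Junb, median 1.16). That list summed to 7845.1 CPM in the B2m-null CD40 pool of the fit and 5911.1 in the pool of 7 members. The B2m-null isotype pools gave 4157.6 and 2426.4 CPM. Once the pool of 7 members was added, 2 genes of that list were raised within B2m-null tumours. The part of that list in the other results was not tested. The interferon-gamma list was known to respond in these data when it was chosen. Its sum ranged over the pools from 798.9 to 9044.2 CPM in the members and from 1260.5 to 2963.5 CPM in the other kept barcodes.

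Gbp4 (ENSMUSG00000079363) stood at 314 and 205 CPM in the control isotype pools, 478 under control CD40, 57.1 and 48.1 under B2m-null isotype, and 698 and 401 under B2m-null CD40. Its CD40 pools lay above the isotype pools within each genotype. It was raised by CD40 on average (2.31 ± 0.27, edgeR adjusted p = 2.80e-08) and within B2m-null tumours (3.77 ± 0.40, edgeR adjusted p = 1.71e-09). Iigp1, one of the immunity-related GTPases, gave 1152 and 873 CPM, 1123, 197 and 55.5, and 1293 and 921 CPM in the same order of groups. Here the B2m-null isotype pools were the only low ones, and the control CD40 pool lay between its isotype pools. Iigp1 was lower in B2m-null tumours under isotype (-3.01 ± 0.34, edgeR adjusted p = 3.69e-08). Gbp2 gave 465 and 712, 786, 105 and 14.8, and 894 and 134 CPM, so the 2 B2m-null CD40 pools stood far apart. Gbp2 was lower in B2m-null tumours under isotype (-3.26 ± 0.40, edgeR adjusted p = 2.62e-07), a call not made by DESeq2 (adjusted p = 0.211) or with barcodes thinned to 2000 UMIs (-1.42, edgeR adjusted p = 0.325).

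Ubd (FAT10, a ubiquitin-like modifier induced by interferon-gamma and TNF) was far higher in the members than elsewhere. Its CPM was 695 and 141 under control isotype, 1666 under control CD40, 76.2 and 0 under B2m-null isotype, and 1912 and 342 under B2m-null CD40, against at most 18.1 in the other barcodes of any pool. The CD40 pool stood above its isotype pools in both genotypes. All 24 Ubd UMIs of B2m-null isotype replicate 1 came from 1 barcode. CD40 raised Ubd within B2m-null tumours (5.62 ± 0.56, edgeR adjusted p = 2.60e-10) and within control tumours (1.93 ± 0.46, edgeR adjusted p = 0.0403). The first value was 11.68 without B2m-null isotype replicate 1 and 4.71 without replicate 2, and DESeq2 did not make that call (adjusted p = 0.940). The second call was lost with the pool of 7 members added (edgeR adjusted p = 0.768) and without control isotype replicate 2 (edgeR adjusted p = 0.266), as well as by DESeq2 (adjusted p = 0.971) and in 3 further alternatives. Ubd was detected in 64.1% of the control CD40 members and 47.6% and 42.9% of the B2m-null CD40 members. Under isotype it was found in 28.6% and 14.3% of control members and in 2.56% and 0% of B2m-null members, where 0 of 16 allows up to 18.75% of barcodes with a UMI. T cells gave 0.123% to 1.94%.

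Cd274, which encodes the checkpoint ligand PD-L1, was at 79.7 and 64.2 CPM under control isotype, 138 under control CD40, 9.52 and 3.70 under B2m-null isotype, and 259 and 29.7 under B2m-null CD40. The B2m-null isotype pools held 4 UMIs in all and lay below the rest. Cd274 was raised by CD40 within B2m-null tumours (5.20 ± 0.60, edgeR adjusted p = 1.21e-08) and lower in B2m-null tumours under isotype (-3.35 ± 0.61, edgeR adjusted p = 0.000431). The second call was lost in 4 of its alternatives. With barcodes thinned to 2000 UMIs the change was only -0.40 (edgeR adjusted p = 0.983), and neither limma-voom (adjusted p = 0.351), DESeq2 (adjusted p = 0.0895) nor edgeR with the pool of 7 members (adjusted p = 0.0621) made it.

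A list of the type I interferon response was described in the same way. Of 17 tested of 21 listed, CD40 raised 9 within B2m-null tumours (median 1.57), among them Rsad2, Zbp1, Irf7, Isg15 and Ifit1 to Ifit3, and 5 averaged over genotypes. Within control tumours edgeR called 0 of the 17, with 0 also at an unadjusted p under 0.05 and 0 by DESeq2 and limma-voom. Under isotype 5 were lower in B2m-null tumours, of which 1 was called with the pool of 7 members added, 1 without control isotype replicate 1, 2 without B2m-null isotype replicate 2, 3 without the control CD40 pool, 3 without B2m-null CD40 replicate 1 and 0 with thinning. Thinning also gave 2 of the 9 and 1 of the 5 raised.

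Ifng transcripts themselves were counted over all other kept barcodes of the same pools. These include 837 barcodes of the melanoma rule and 508 of a fibroblast rule, and the value is a level per pool, not per leukocyte. Ifng stood at 76.5 and 37.4 CPM in the other kept barcodes of the control isotype pools, 103 under control CD40, 8.87 and 20.2 under B2m-null isotype, and 107 and 75.1 under B2m-null CD40. Its lowest pools were thus also the lowest for Cxcl9, Gbp2, Cd274 and Iigp1 in the endothelial members, in which Ifng was detected in 1 barcode. Its part in these results was not tested.

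**Figure D3:**
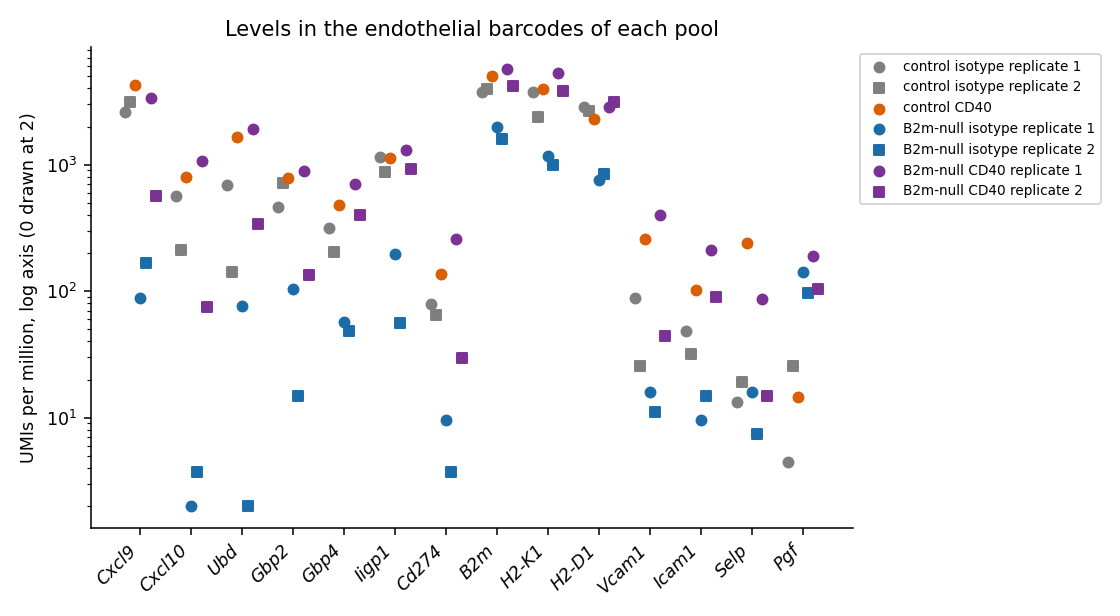
Levels of 14 genes in the endothelial members of each of the 7 pools, in CPM on a log axis, with a pool at 0 drawn at 2 and 1 point per pool. The 2 B2m-null isotype pools lie lowest for Cxcl9 (88.9 and 166 CPM) and Cxcl10 (0 and 3.70 CPM).

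The class I genes named next were also lowest in the B2m-null isotype pools. H2-K1 (ENSMUSG00000061232), a classical class I heavy chain, stood at 3765 and 2388 CPM under control isotype, 3976 under control CD40, 1168 and 995 under B2m-null isotype, and 5298 and 3787 under B2m-null CD40. The 3 CD40 pools all lay above the 4 isotype pools. H2-K1 was raised by CD40 within B2m-null tumours (2.36 ± 0.28, edgeR adjusted p = 2.64e-08) and lower in B2m-null tumours under isotype (-1.54 ± 0.24, edgeR adjusted p = 3.39e-05). H2-D1 gave 2853 and 2670, 2296, 758 and 840, and 2829 and 3104 CPM, so only the B2m-null isotype pools stood apart. It was lower there (-1.82 ± 0.24, edgeR adjusted p = 1.12e-06), and its CD40 effect was larger in B2m-null tumours (difference 2.18 ± 0.41, edgeR adjusted p = 0.00132). The host's own B2m was among these genes, at 3730 and 3942, 5026, 1999 and 1583, and 5674 and 4218 CPM. In the other kept barcodes, which include those of the melanoma rule, B2m gave 3406 and 3359, 4435, 2511 and 2563, and 4196 and 4002 CPM. The B2m-null isotype pools were thus lowest there as well, so this order was not particular to the endothelial members. It was lower in endothelium of B2m-null tumours under isotype (-1.13 ± 0.22, edgeR adjusted p = 0.00149), a call lost without either control isotype pool (edgeR adjusted p = 0.0662 and 0.138) and with thinning (edgeR adjusted p = 0.0540). The same call for H2-K1 was lost without control isotype replicate 1 (edgeR adjusted p = 0.0678).

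Of 18 class I presentation genes, all tested, 10 were lower in B2m-null tumours under isotype (median -1.53) and 14 were raised by CD40 within them (median 2.12). The latter included the peptide transporter gene Tap1 and the immunoproteasome genes Psmb8, Psmb9 and Psmb10. With the pool of 7 members 7 and 10 calls were made, with barcodes thinned to 2000 UMIs 2 and 9, and by DESeq2 7 and 9. Without control isotype replicate 1 the number lower under isotype was 4. In control tumours edgeR called 0 of 18 under CD40, with 2 raised at an unadjusted p under 0.05 and 0 by DESeq2 and limma-voom. The CD40 effect was larger in B2m-null tumours for some of the 18. Fewer of them were called once the pool of 7 members was added or barcodes were thinned. In sum the 18 genes ranged over the pools from 4952.7 to 19295.4 CPM in the members. In the other kept barcodes they ranged from 7641.8 to 14218.7 CPM.

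Class II genes were low in the members, at 1049.3 CPM in sum against 8310.7 elsewhere. Cd74, the invariant chain, was at 669 and 70.6, 666, 190 and 118, and 1701 and 446 CPM. One B2m-null CD40 pool was highest. Both B2m-null CD40 pools lay above the B2m-null isotype pools, while the control CD40 pool lay between its isotype pools. CD40 raised 6 of 6 tested class II genes within B2m-null tumours (median 2.99), but 1 of them once the pool of 7 members was added, and the 6 raised averaged over genotypes were not called in that fit. DESeq2 and thinning also made fewer of these calls within B2m-null tumours, and with thinning only 4 of the genes could be tested. Markers of leukocytes, which make these genes in bulk, were also high in that pool, B2m-null CD40 replicate 1. Its summed level was the highest of the 7 pools for the pan-leukocyte list (822.9 CPM, elsewhere at most 495.6), the T and NK cell list (282.1, elsewhere at most 105.0) and the B cell list (1489.1, elsewhere at most 8.86). The macrophage list stood at 799.4 CPM there and was highest in B2m-null isotype replicate 1, at 1234.6. A fit without members of at least 10 immunoglobulin UMIs or at least 2 lymphatic genes made all the class II calls within B2m-null tumours again. It also made most of the other CD40 calls there, but fewer class II calls averaged over genotypes. The part of macrophage, T cell and other leukocyte transcripts in the class II result, and in the other CD40 results within B2m-null tumours, was not tested.

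Adhesion molecules for leukocytes were raised by CD40 in a few members of a list of 17. Of 14 tested, Vcam1, Icam1 and Selp were raised on average and within B2m-null tumours, and Selp and Vcam1 within control tumours, while the list's median was 0.02, -0.02 and 0.23 for the average, control and B2m-null contrasts. Within B2m-null tumours fewer genes of the list were called with the pool of 7 members added, by DESeq2 and with thinning. Vcam1 (ENSMUSG00000027962) stood at 88.6 and 25.7 CPM under control isotype, 257 under control CD40, 15.9 and 11.1 under B2m-null isotype, and 400 and 44.6 under B2m-null CD40. The CD40 pools were above the isotype pools within each genotype, but the value of B2m-null CD40 replicate 2 came from 3 UMIs in 1 barcode. It rose on average by 3.46 ± 0.35 (edgeR adjusted p = 4.69e-10) and within control tumours by 2.04 ± 0.45 (edgeR adjusted p = 0.0179), the latter lost with the pool of 7 members (edgeR adjusted p = 0.510) and without control isotype replicate 2 (edgeR adjusted p = 0.222). With barcodes thinned to 2000 UMIs the change in control tumours was 0.34 (edgeR adjusted p = 0.982) and the average change 2.39 (edgeR adjusted p = 0.135), neither of them called. In the B2m-null isotype pools Vcam1 was detected in 7.69% and 12.5% of members, against 11.5% and 9.01% of T cells, which were not matched in depth. Those values therefore cannot be told from background. The same holds for control isotype replicate 2, part of the baseline of the change in control tumours, where Vcam1 was detected in 14.3% of members against 12.4% of T cells and in none of 11 after thinning.

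Icam1, the ligand of LFA-1, gave 48.7 and 32.1, 101, 9.52 and 14.8, and 212 and 89.1 CPM. All 3 CD40 pools were above all 4 isotype pools, and the average CD40 change was 2.70 ± 0.39 (edgeR adjusted p = 4.30e-06), which DESeq2 did not call (adjusted p = 0.0624). Selp was at 13.3 and 19.3, 239, 15.9 and 7.40, and 86.2 and 14.8 CPM, with 1 barcode holding 80.3% of its UMIs in the control CD40 pool. Its average CD40 change of 3.36 ± 0.46 (edgeR adjusted p = 1.42e-06) therefore rests on few cells. E-selectin (Sele) was detected in 4 members in all.

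Venous genes overlapped this list. Of 11 tested of 16, CD40 raised 5 on average, namely Selp, Vcam1, Vwf, Il6st and Nr2f2 (a transcription factor of venous identity), with a median of 1.76. The number was 2 within control tumours (median 0.99) and 4 within B2m-null tumours (median 1.49). With the pool of 7 members the numbers were 2, 1 and 1, and with thinning 1, 0 and 1. On average fewer venous genes were also called without members that had at least 10 immunoglobulin UMIs or at least 2 lymphatic genes. Members with Selp or Ackr1 were 12 of the 67 from CD40 pools, including the 1 with lymphatic genes, and 9 of the 97 from isotype pools, and whether the change lies in the mix of vessel types or in each cell was not tested.

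Tip cell and Notch genes went the other way in a few cases. Of 16 tip cell genes, CD40 lowered Kcne3 and Adm on average (median -0.34) and Kcne3 and Dll4 within B2m-null tumours (median -0.56), and raised none. The 2 average calls were not made with the pool of 7 members added (edgeR adjusted p = 0.308 for Kcne3 and 0.231 for Adm) or by DESeq2 (adjusted p = 0.694 and 0.313), and Adm was also lost with limma-voom (adjusted p = 0.650). Dll4 stood at 230 and 347 CPM under control isotype, 330 under control CD40, 349 and 314 under B2m-null isotype, and 94.0 and 208 under B2m-null CD40. Only the B2m-null CD40 pools were low, and the change there was -1.75 ± 0.49 (edgeR adjusted p = 0.0326). Efnb2, an arterial ephrin and Notch target, was lowered beside it (-1.83 ± 0.50, edgeR adjusted p = 0.0298). The calls within B2m-null tumours were not made with the pool of 7 members added, where the change within B2m-null tumours had an edgeR adjusted p of 0.173 for Dll4, 0.659 for Kcne3 and 0.208 for Efnb2. DESeq2 made none of the 3 (adjusted p = 0.447, 1.00 and 0.424), nor did edgeR with at least 2 Cdh5 UMIs per barcode (adjusted p = 0.0511, 0.0636 and 0.0537). Thinning also lost Dll4 and Kcne3, Kcne3 was lost without B2m-null isotype replicate 2 (-1.16, edgeR adjusted p = 0.190) and Efnb2 without replicate 1 (edgeR adjusted p = 0.0729). These calls therefore rest on the choice of fit. The change within B2m-null tumours stayed negative in the alternatives, from -1.87 to -1.25 for Dll4, -2.10 to -0.817 for Kcne3 and -3.95 to -1.25 for Efnb2. Esm1 and Apln, at the levels given above, were not called in any of these contrasts. Of 10 tested arterial genes edgeR called 0 averaged over genotypes, with 2 raised and 2 lowered at an unadjusted p under 0.05 and 0 by DESeq2 and limma-voom.

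Few capillary and matrix genes passed the test. Of 11 tested capillary genes, CD40 lowered Btnl9 on average (median of the list -0.23), lowered Aqp1 within control tumours (median -0.71), and raised Aqp1 and Sgk1 and lowered Btnl9 within B2m-null tumours (median 0.43). Btnl9, a butyrophilin-like gene, was at 372 and 302, 235, 457 and 488, and 118 and 431 CPM. B2m-null CD40 replicate 1 was lowest, while the pool of 7 members lay among the isotype pools. Its change was -1.24 ± 0.30 on average (edgeR adjusted p = 0.0107) and -1.94 ± 0.46 within B2m-null tumours (edgeR adjusted p = 0.00659). With the pool of 7 members these were -0.74 and -0.93 and not called (edgeR adjusted p = 0.596 and 0.485), nor were they by DESeq2 (adjusted p = 0.229 and 0.109). The Sgk1 call was lost in 7 alternatives, among them either B2m-null isotype pool left out (edgeR adjusted p = 0.0974 and 0.0921). Aqp1, the water channel of capillaries, was at 1041 and 956 CPM under control isotype, 355 under control CD40, 498 and 614 under B2m-null isotype, and 1270 and 787 under B2m-null CD40. The control CD40 pool lay below its isotype pools while the B2m-null CD40 pools lay above theirs. Aqp1 was lowered by CD40 in control tumours (-1.52 ± 0.35, edgeR adjusted p = 0.0298) and raised in B2m-null tumours (1.26 ± 0.32, edgeR adjusted p = 0.0139), and the effects differed (2.77 ± 0.47, edgeR adjusted p = 0.000412). With the pool of 7 members neither call within a genotype was made among the 11 tested capillary genes. The call in control tumours was also lost without either control isotype pool (edgeR adjusted p = 0.0957 and 0.0637), that in B2m-null tumours without B2m-null isotype replicate 1 (edgeR adjusted p = 0.0746) and by DESeq2 (adjusted p = 0.0773), and both with thinning, while the difference of the effects kept its call in every alternative run. Igfbp3 was at 5098 and 7947, 3850, 6728 and 5204, and 2814 and 4857 CPM. Its 3 CD40 pools lay below the 4 isotype pools, and the average change was -0.90 ± 0.20 (edgeR adjusted p = 0.00523). It was the single called gene of 18 tested on the basement membrane list, and the call was not made with the pool of 7 members added or without control isotype replicate 2 (edgeR adjusted p = 0.250). Among the 32 identity genes CD40 raised Vwf on average, and Plvap (the diaphragm protein of fenestrae) and Vwf within B2m-null tumours, and no identity gene was lowered in any of the 6 contrasts. None of these calls was made with the pool of 7 members added.

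**Figure D4:**
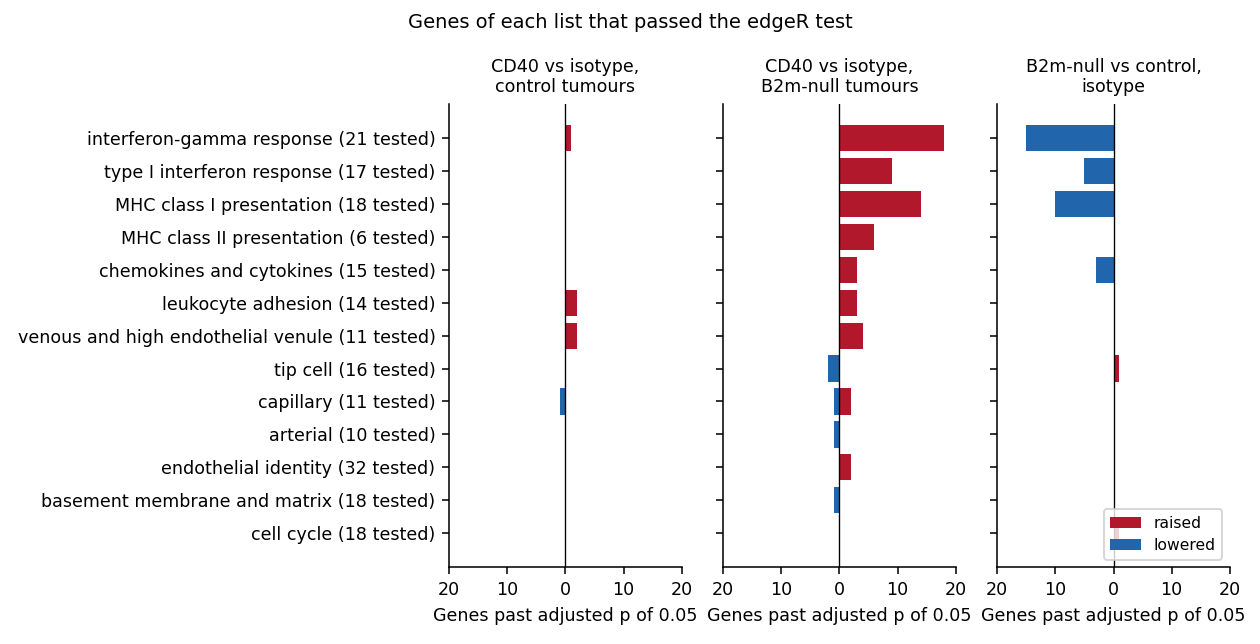
Number of genes raised (right) and lowered (left) by edgeR at an adjusted p under 0.05 for 13 gene lists in 3 comparisons. The interferon-gamma list leads, with 18 of 21 raised by CD40 in B2m-null tumours and 15 of 21 lower in B2m-null tumours under isotype.

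Between the tumour genotypes Pgf was higher in B2m-null tumours. Pgf (ENSMUSG00000004791), a VEGF family ligand of Flt1, stood at 4.43 and 25.7 CPM under control isotype, 14.5 under control CD40, 143 and 96.2 under B2m-null isotype, and 188 and 104 under B2m-null CD40. The 4 B2m-null pools all lay above the 3 control pools, with an average change of 3.40 ± 0.46 (edgeR adjusted p = 4.00e-06). A single barcode held 75.0% to 96.15% of the Pgf UMIs in each B2m-null pool, and 18 members had any. With barcodes thinned to 2000 UMIs the change was 3.05 and not called (edgeR adjusted p = 0.302). Pgf was the only one of 13 tested VEGF and angiopoietin genes called for genotype.

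Of 18 cell cycle genes 4 (Ube2c, Cenpf, Birc5 and Ccnb2) were higher in B2m-null tumours averaged over treatments, with a median of 0.65. Ube2c, the ubiquitin-conjugating enzyme of mitotic exit, was at 102 and 64.2, 50.7, 232 and 296, and 368 and 74.3 CPM. The pool of 7 members fell among the control pools and the other 3 B2m-null pools lay above. Its change was 2.25 ± 0.32 (edgeR adjusted p = 9.73e-06), and with that pool 1 of the 18 genes was called, against 2 by DESeq2, 0 with thinning, where 5 could be tested, and 8 without control isotype replicate 1. Markers of leukocytes were also above 0 in this contrast. The monocyte and macrophage list had a median of 1.02, with 7 of 9 tested genes above zero, 5 raised at an unadjusted p under 0.05 and 0 called by edgeR (0 by DESeq2, 1 by limma-voom). Cd52 of the pan-leukocyte list was called as raised by edgeR (2.37 ± 0.39). That call was not made by DESeq2 or with the pool of 7 members added. It was also lost without members that had at least 10 immunoglobulin UMIs or at least 2 lymphatic genes. The part of leukocytes in the cell cycle result was not tested. CD40 gave 0 calls among the 18 by edgeR averaged over genotypes, with 1 at an unadjusted p under 0.05 and 0 by DESeq2 and limma-voom.

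In control tumours the CD40 response rested on a single pool. Besides Ubd, Vcam1 and Selp it raised Hspa1b, a heat shock gene, at 26.6 and 6.42 CPM under isotype and 391 CPM under CD40 (4.37 ± 0.53, edgeR adjusted p = 3.22e-07, but 0.113 with thinning), with 0 CPM in both B2m-null CD40 pools. Ccl21a, a chemokine of lymphatic endothelium, was at 0 in the isotype pools and at 87 UMIs under CD40, at least 40.1-fold higher with the floor of 3 UMIs over the isotype pools, and all of them came from the 3 members with lymphatic genes. Some ribosomal protein genes rose as well, by log2 changes of 1.53 for Rps29, 1.42 for Rpl37a, 1.39 for Rpl38 and 1.18 for Rpl39. Rpl41, another of them, was at 1240 and 1708 CPM under isotype and 4096 under CD40. It was also highest in this pool in the other barcodes, at 3474 CPM against 1548 to 2276 CPM in the other 6 pools, and its part in the other results was not tested.

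Among transcripts outside the lists, AY036118 and Gm42418 were lower under CD40 in the members. AY036118 stood at 111.5 CPM under CD40 against 618.4 under isotype over the pools of the fit, an average change of -2.51. Gm42418 also moved with treatment in the pooled other kept barcodes. Gm42418, which overlaps a ribosomal RNA unit, stood at 19614 and 23322 CPM under control isotype, 4838 under control CD40, 28789 and 19485 under B2m-null isotype, and 3629 and 3267 under B2m-null CD40. All 3 CD40 pools were below all 4 isotype pools. The average change was -2.42 ± 0.19 (edgeR adjusted p = 5.47e-13), the other kept barcodes gave 1679 to 2397 CPM under CD40 and 5643 to 7048 CPM under isotype, and its part in the CD40 results was not tested.

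Transcripts of CD40 itself were rare in the members. Cd40 was detected in 10 members, at 10.4 CPM against 44.4 in the other barcodes, and of 8 tested genes of a CD40 and NF-kB list CD40 raised Rela alone, on average and within B2m-null tumours. The second call was not made with the pool of 7 members added, and DESeq2 made neither. A low level of Cd40 in the other members was not detectable at this depth.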

How the data were processed

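Gene expression was measured with 10x 3' version 3 libraries, 8 lanes in 7 pools. Reads were processed with Cell Ranger 3.0.0 and bcl2fastq 2.20.0.422 on mm10, per the submitters' processing notes. The authors deposited raw UMI counts per gene and barcode, not normalized, for 32285 genes, per the file headers. From these counts the members were picked and their UMIs summed per pool, and CPM was computed from the sums. edgeR 4.0.16 (R 4.3.3) was fitted with TMM scaling, filterByExpr, 4 group means and the quasi-likelihood test, at an adjusted p of 0.05. DESeq2 1.42.0 and limma 3.58.1 (voom) were alternatives. Shares were compared with exact permutation in SciPy 1.17.1, and intervals are exact binomial or Poisson, for counting error only. The floor is 3 counts over a group. A simulation of the fit gave all genes the same spread, all pools the same base profile and both genotypes the same CD40 effect. Its rates therefore need not hold for the real pools, where single barcodes can hold much of a gene's UMIs. On data simulated for CD40 against isotype with 5594 genes, the fit recovered 24.3% of genes raised by a log2 change of 1, 92.5% at 2 and 100% at 3, and 12.5% and 58.1% of those lowered by 1 and 2, with 7 false among 115 calls.

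The members, the 33 gene lists and the contrasts were chosen with earlier results of these data known. Named genes are list members past the threshold and, outside the lists, at most 10 per direction with the largest fold and no overlap between pools. Genes singled out beyond that (Esm1, Apln, Ifng, Cd40, Rpl41, Gm42418) were described after their values were seen. Doublets were sought from hashtag counts only. Promoters come from RefSeq (GRCm38.p6), where Gbp4, Vcam1 and Cdh5 had no entry. The 2 technical lanes of control CD40 were summed. Replicate numbers name separate pools and their pairing was checked. Some genes are not reported here.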

Additional observations from a re-analysis of the deposited data

Results flagged for a closer look

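The CD40 effect in endothelial cells differed between control and B2m-null tumours for 62 genes by the interaction test of edgeR, with 1 CD40 pool in each genotype. The log2 effect was larger in B2m-null tumours by 7.96 for Cxcl10, 4.24 for Cxcl9, 2.94 for Gbp4 and 2.18 for H2-D1. Adding the pool of 7 members left Cxcl10 and H2-D1 called (edgeR adjusted p = 0.0360 for both) and Cxcl9 and Gbp4 not (edgeR adjusted p = 0.0642 and 0.0625). For Aqp1 the difference was 2.77, with a fall in control and a rise in B2m-null tumours. For Rpl41 it was -1.93, with the control CD40 pool highest in the endothelial and the other barcodes alike.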

How the results depend on the processing

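The share difference for CD40 kept its sign in every alternative and ranged from -0.0889 to -0.0147 percentage points when each pool was left out in turn. The difference for genotype ranged from -0.0223 to 0.0652 and reversed, to -0.0223, without B2m-null isotype replicate 1. Counts of called genes are given for CD40 on average, in control tumours, in B2m-null tumours, for genotype, for the difference of the effects and for genotype under isotype, where the first values were 101, 22, 155, 40, 62 and 61. DESeq2 called 28, 13, 48, 9, 23 and 25, and adding the pool of 7 members, chosen after seeing the data, gave 40, 7, 70, 12, 11 and 28. Thinning each barcode to 2000 UMIs gave 29, 16, 46, 6, 21 and 7. In control tumours the count was 38 without a filter on low counts, 35 with the technical lanes separate and 14 with at least 2 Cdh5 UMIs. For genotype it was 23 with limma-voom, 24 with the lanes separate and 24 with at least 2 Cdh5 UMIs. Leaving out each pool gave 101 to 135, 18 to 62, 147 to 196, 48 to 59, 66 to 99 and 50 to 70. With a pool left out, the genes called were in part other ones, so a like count does not mean the same genes. Fewest of the first calls for the difference of the effects and for genotype under isotype were kept without control isotype replicate 1. In control tumours, many were lost without either control isotype pool. Thinning tests fewer genes, and the cause of the other shifts was not tested. Of 53 results for single genes followed through the alternatives, 23 kept their call under every alternative run. Over their 747 alternative values, 656 kept the call, 91 lost it and 0 reversed. Removing hashtag doublets is not counted there, since it removed no member.

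No pairing of pools by replicate number was seen (correlation of deviations -0.00626 over the single complete pair of groups). Many genes held few UMIs per pool, which draws such a correlation to 0, so the check cannot decide whether pools were paired. With the replicate block the counts were 122 for CD40 in B2m-null tumours and 63 for genotype under isotype. Within B2m-null tumours the block did not make the calls for Dll4 (adjusted p = 0.0732), Kcne3 (adjusted p = 0.290), Aqp1 (adjusted p = 0.0525), Sgk1 (adjusted p = 0.0575) and Ccl8 (adjusted p = 0.0732). Removing members with at least 3 leukocyte UMIs was not run, since too few pools kept 10 members. With the control CD40 pool or B2m-null CD40 replicate 1 left out, contrasts resting on it gave no value. The depth limits most the genes under about 50 CPM, which rest on few UMIs per pool.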
